A study of Mus musculus with 2 samples.

Results

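Collagens, laminins and integrins were followed through 1 pooled single-cell RNA library of the medial ganglionic eminence, here MGE, a swelling of the ventral forebrain that makes cortical interneurons and neurons of the basal forebrain. Members were taken by symbol alone, as every row of the expression matrix named like a collagen chain (Col, number, a, number), a laminin chain (Lama, Lamb or Lamc and a number) or an integrin subunit (Itga or Itgb and a suffix). The rule found 55 of 18088 rows: 28 collagens, 7 laminins, 16 integrins and 4 further rows that carry a matching name but are not chains (Itgb1bp1, Itgb1bp2, Itgb3bp and Itgbl1). The tissue, from CD-1 mice at E11.5, is marked in the labels by the enhancers hs192 or hs799, whose activity in single cells was the object of the study. In the pool, 4 sample barcodes marked cells gated on GFP, 2 for each enhancer, and 2 marked ungated cells, 1 for each enhancer. No map from cells to these barcodes was used, so the 3995 cells kept counted as 1 sample and the GFP gate can set the share of any class. The sources used here do not say how many embryos were pooled. All cells share the stage and strain, and the groups compared are therefore cell classes of 1 library, with no replicate and no test.

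Collagens are trimers of chains wound around one another. Fibrillar types form fibrils, type IV forms the network of basement membranes, and fibril-associated types bind to the surface of fibrils. Laminins are trimers of an alpha, a beta and a gamma chain and are the other network of basement membranes. Integrins pair an alpha with a beta subunit and anchor cells to these ligands. In the embryonic forebrain the radial progenitors of the ventricular zone (VZ) hold on to the basement membrane at the pial surface through such contacts, and young neurons leave the VZ through the subventricular zone (SVZ).

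The chains of collagen IV are the clearest case of members that are organised as pairs in the genome. Their promoter windows, 250 bases before to 50 bases after a RefSeq transcript start on GRCm38.p6, are printed here because both pairs lie head to head and because the pairs return in the results. For Col4a1 (chr8:11312777-11313076, minus strand) and Col4a2 (chr8:11312555-11312854, plus strand) the starts lie 21 bases apart, and the capitals mark the 78 bases that both windows hold, read from opposite strands.
Col4a1: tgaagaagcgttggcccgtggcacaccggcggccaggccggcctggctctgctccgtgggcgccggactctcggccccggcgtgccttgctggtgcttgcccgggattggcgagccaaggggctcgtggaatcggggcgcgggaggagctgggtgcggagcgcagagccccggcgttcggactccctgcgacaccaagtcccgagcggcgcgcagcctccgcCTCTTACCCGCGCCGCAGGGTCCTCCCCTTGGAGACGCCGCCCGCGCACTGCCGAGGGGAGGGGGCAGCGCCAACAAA
Col4a2: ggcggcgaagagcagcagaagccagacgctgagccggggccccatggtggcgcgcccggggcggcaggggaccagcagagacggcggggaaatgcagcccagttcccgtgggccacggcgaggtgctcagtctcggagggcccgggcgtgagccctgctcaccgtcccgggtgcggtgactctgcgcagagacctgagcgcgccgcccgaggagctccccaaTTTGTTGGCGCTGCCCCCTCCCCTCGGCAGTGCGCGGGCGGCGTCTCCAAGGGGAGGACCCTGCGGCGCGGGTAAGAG

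For Col4a5 (chrX:141475169-141475468, plus strand) and Col4a6 (chrX:141474027-141474326, minus strand) the starts lie 1343 bases apart and the windows share 0 bases. The capitals mark the GC box, GGGCGG on either strand.
Col4a5: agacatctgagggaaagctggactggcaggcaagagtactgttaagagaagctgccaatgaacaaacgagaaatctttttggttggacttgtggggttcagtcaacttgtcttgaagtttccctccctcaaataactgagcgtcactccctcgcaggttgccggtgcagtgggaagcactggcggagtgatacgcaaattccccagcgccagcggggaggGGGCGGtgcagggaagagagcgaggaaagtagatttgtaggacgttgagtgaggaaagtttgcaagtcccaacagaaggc
Col4a6: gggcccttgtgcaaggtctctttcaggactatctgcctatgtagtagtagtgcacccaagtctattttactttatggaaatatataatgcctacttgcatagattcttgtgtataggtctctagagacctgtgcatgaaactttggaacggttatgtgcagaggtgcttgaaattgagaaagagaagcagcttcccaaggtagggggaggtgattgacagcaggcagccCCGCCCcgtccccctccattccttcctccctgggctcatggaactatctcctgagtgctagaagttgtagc

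The Col4a1 and Col4a2 windows were 74% and 73.7% G or C, and those of Col4a5 and Col4a6 52.7% and 48.3%, against a median of 52.7% over all 32851 windows. Among 46 windows matched to 40 members, 65.2% held GGGCGG on either strand, against 35.7% of all windows. The letters CCAAT were in 32.6% of the members' windows and 37.4% of all windows. TATAAA was in 2.17% of the members' windows and 13.6% of all windows. These are matches of letters within the windows, and no binding was measured. All windows cover 27025 symbols and were not limited to genes of the matrix. Shares among genes of the matrix alone were not computed.

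Cells were grouped with the members left out of the genes used for clustering. The groups comprised 1163 VZ progenitor-like cells (29.1%, exact binomial 95% interval 27.7% to 30.5%), 569 SVZ progenitor-like cells (14.2%, 13.2% to 15.4%) and 1906 neuron-like cells (47.7%, 46.2% to 49.3%). These intervals cover only the counting of cells in this library, whose shares the GFP gate can set. The remaining 357 cells formed 1 unnamed cluster led by Zic1 and Lhx8. Among neuron-like cells, 1173 were GABAergic MGE neuron-like, 290 cholinergic neuron-like, 244 like neurons of the lateral ganglionic eminence (LGE), 38 glutamatergic-type neuron-like and 161 of unnamed subtype. Hes5 and Tubb3 are among the markers that named the classes, so their levels describe the classes and are no check of them. Hes5, a Notch effector of radial progenitors, was at 12.4 per 10000 in VZ progenitor-like cells, 2.13 in SVZ progenitor-like cells and 0.285 in neuron-like cells. The neuronal tubulin Tubb3 was at 2.19, 15.6 and 33.4. Not every marker separated the classes. Elavl4, a neuron marker, was at 2.49 in SVZ progenitor-like and 2.06 in neuron-like cells, and the VZ marker Pax6 at 0.0731 in VZ and 0.0685 in SVZ progenitor-like cells. The MGE transcription factors Lhx6 and Lhx8 were at 2.48 and 4.68 in neuron-like cells. The acetylcholine enzymes and transporters Chat and Slc18a3 had no row, so the cholinergic name rests on transcription factors. A level is a gene's summed value per 10000 summed values of a class. The values come from the 3′ molecules of the 10x assay without a length correction, so levels are compared between classes and not between genes. Levels summed over several genes are also compared between classes, and genes with more values weigh more in them. Medians of the cell totals were 13498 in VZ progenitor-like, 12616 in SVZ progenitor-like and 12069 in neuron-like cells. Hba-a1, a globin of red cells, had a value in 32.9%, 31.3% and 31.3% of these cells. Among the globins with a row, Hbb-y was highest, with a value in 70.2%, 71.0% and 74.3% of cells. Its levels were 0.932, 1.16 and 1.21 per 10000. Hba-a2 was lowest, with a value in 2.84%, 1.76% and 2.57% of cells. Globin values are taken as background from free RNA, which thus differed between transcripts and was not subtracted from the members.

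Every member was accounted for. At least 30 summed values over all cells were reached by 21 of 28 collagens, 4 of 7 laminins, 10 of 16 integrins and 3 of the 4 other rows. Collagen sums ran between 10 and 1582, laminin sums between 12 and 310 and integrin sums between 13 and 5154. These sums give the number of values behind a member and are no measure of abundance between genes. Itgb1, the beta subunit that most alpha subunits use, had the largest sum of the integrins and a value in 2715 cells. Col5a2, a chain of the fibrillar type V collagen, led the collagens with 1582 in 1091 cells. Lama1, the alpha chain of the first embryonic laminin, led the laminins with 310 in 276 cells. At the other end, Col6a2 had 10, Col5a3 11, Lama3 and Col6a4 12 each, and Lama4 and Itgb6 13 each. Symbols without a row, among them Lamb1, Col3a1, Lama2 and Itgb3, were not analysed here.

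Among the 3 named classes, the summed level of the members was highest in the VZ and lowest in neurons. It was 7.27 per 10000 in VZ progenitor-like cells, 4.08 in SVZ progenitor-like cells and 2.39 in neuron-like cells, and 2.37 in the unnamed cluster. The median cell held values of 7, 3 and 2 members in that order. Collagens stood at 2.81, 1.46 and 0.771, laminins at 0.405, 0.105 and 0.0721, and integrins at 2.90, 1.71 and 1.04. These family levels leave out the 4 rows that are not chains, which the sums over all members include. Of the 38 members with at least 30 summed values, 25 had their highest level in 1 of the 4 VZ progenitor-like clusters, where 36.2% of all such genes did. A further 12 had it in a neuron-like cluster, where 46.4% of all genes did, and Col5a2 had it in an SVZ progenitor-like cluster.

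**Figure D1:**
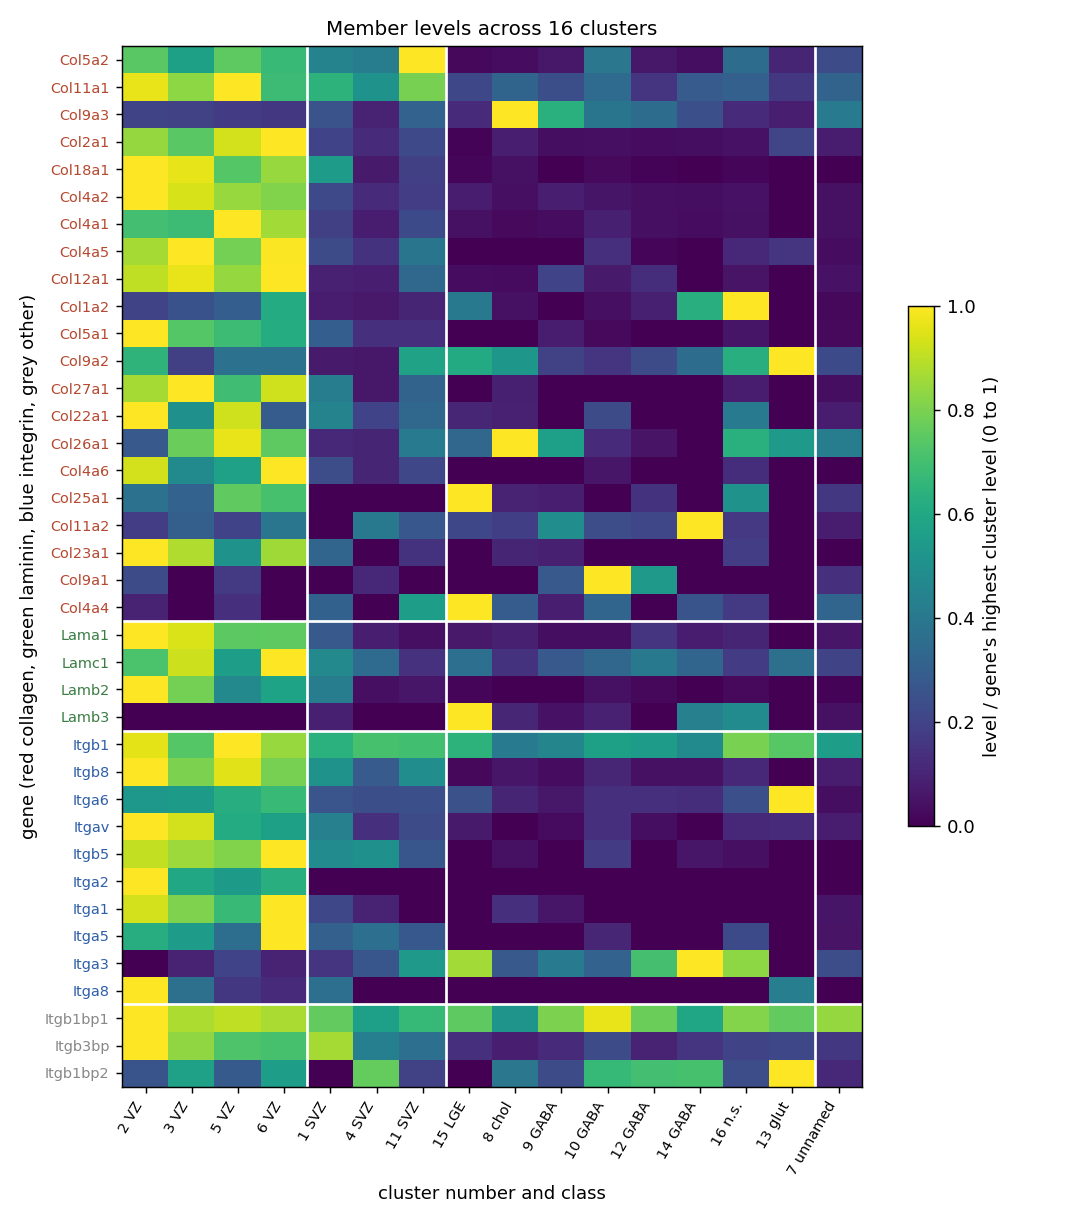
Level of the 38 members with at least 30 summed values (rows, by family and by falling sum) in each of the 16 clusters (columns, by class), divided by the gene's highest cluster level (colour, 0 to 1). Most rows are brightest in the 4 VZ columns on the left; Col9a3, Col1a2, Itga3 and Itga6 are brightest in neuron-like columns and Col5a2 in SVZ cluster 11 (chol, cholinergic; GABA, GABAergic MGE; glut, glutamatergic-type; n.s., subtype unnamed).

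Neuron-like cells of all subtypes, including LGE neuron-like, glutamatergic-type neuron-like and unnamed ones, were then set against VZ progenitor-like cells. Descent of the neurons from these progenitors was not measured. Col18a1, Col4a1, Col4a2, Col4a5, Col4a6, Lama1 and Lamb2 of the basement membrane, the fibrillar chain Col2a1, and the integrin subunits Itga1, Itgav, Itga5 and Itga8 were each over 10-fold lower in neurons. Of these, Itga1, Itga5, Itga8 and Col4a6 had only 3, 4, 1 and 2 summed values in neuron-like cells, so the size of their ratios is uncertain. Itgb1 in neurons was at 0.612 times its VZ level, and Col9a3 was higher. With at least 30 summed values over both classes together, 36 members could be compared. A level at least 2-fold lower in neurons was found for 26 of them, where 23.4% of 14829 genes were lower, and at least 2-fold higher for 3, where 17.0% were higher. The remaining 7 lay between. The median log2 ratio was -3.40 for these members and -0.14 for all genes. Since a low-valued member reached the minimum only through the class in which it was high, all 55 were also counted without a minimum: 34 were lower, where 25.6% of all genes were, and 12 higher, where 18.2% were, with a median of -2.20. The whole distribution and each member's place are in the plot of log2 ratios.

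**Figure D2:**
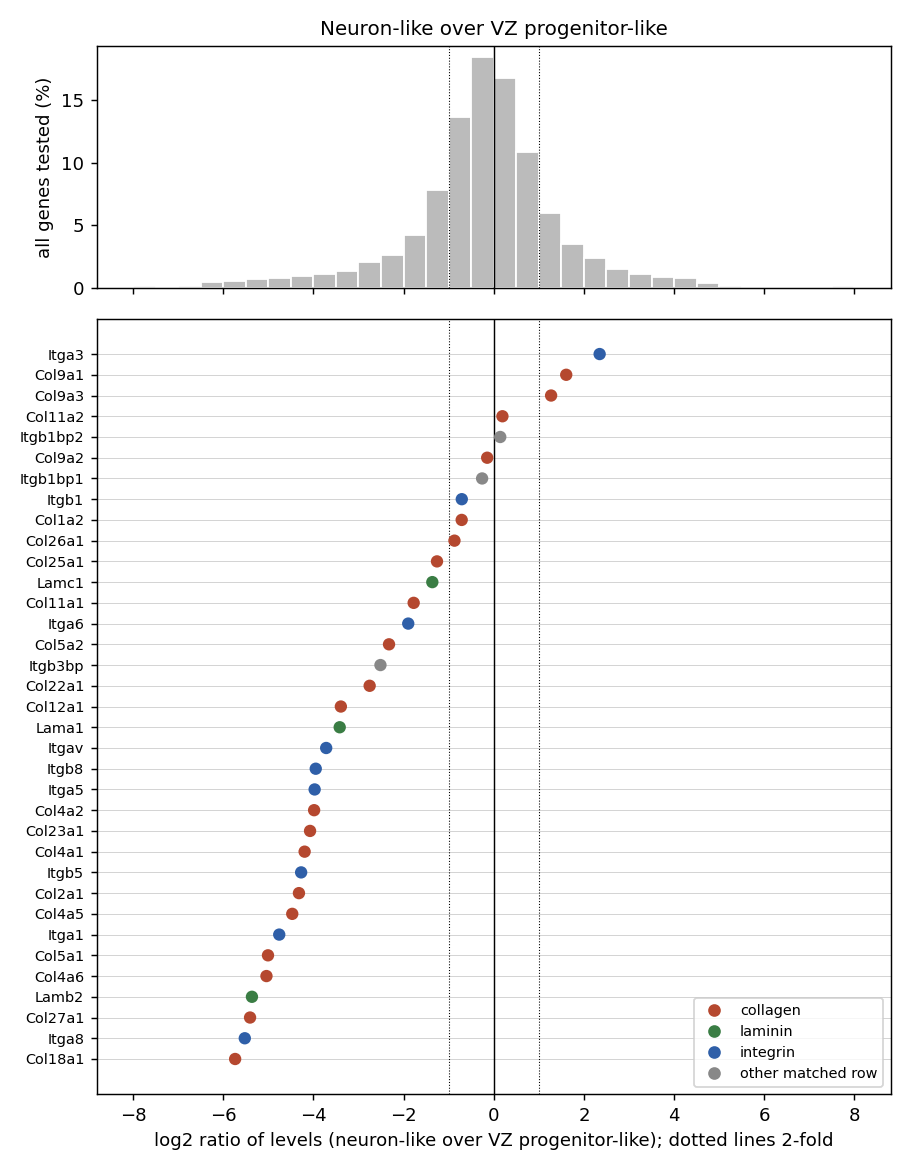
Log2 ratio of the level in neuron-like over VZ progenitor-like cells, as a histogram of all 14829 genes (top, per cent of genes) and as 1 point for each member with at least 30 summed values (bottom, coloured by family). Dotted lines mark 2-fold; most members lie left of the bulk of the genes, Col18a1 lowest at -5.74, and Itga2, listed at 0 in neuron-like cells, has no point.

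Among the basement membrane collagens, Col18a1, the core chain of a heparan sulphate collagen, was at 0.00640 per 10000 in neuron-like cells and 0.341 in VZ progenitor-like cells, a log2 ratio of -5.74. It had a value in 0.682% of neuron-like and 36.2% of VZ progenitor-like cells, and its SVZ level of 0.102 lay between. Col4a1 was at 0.00981 in neuron-like and 0.180 in VZ progenitor-like cells (-4.19). Its head-to-head partner Col4a2 was at 0.0115 and 0.182 (-3.98). The X-linked pair was lower in neurons as well. Col4a5 was at 0.00554 in neuron-like and 0.123 in VZ progenitor-like cells (-4.47), and Col4a6 at 0.000853 and 0.0281 (-5.04, on 2 and 43 summed values). The chains that form the common trimer (Col4a1, Col4a2) and those of the second trimer (Col4a5, Col4a6) thus both had over 10-fold lower levels in neurons. Col4a4, a chain of the trimer known from kidney, had 32 summed values in all, 19 in neuron-like and 3 in VZ progenitor-like cells, and its highest level, 0.0291, in LGE neuron-like cells.

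Of 7 fibrillar collagens that could be compared, 5 were at least 2-fold lower in neurons, where 23.4% of 14829 genes were. Col2a1, the cartilage collagen that embryonic neuroepithelium also makes, was at 0.0179 in neuron-like and 0.358 in VZ progenitor-like cells (-4.32). Col5a1 was at 0.00213 and 0.0685 (-5.01, on 5 and 105 summed values), and Col27a1 at 0.00128 and 0.0542 (-5.40, on 3 and 83). Col5a2 and Col11a1, a chain of type XI, were lower by less. Col5a2 was at 0.113 in neuron-like and 0.567 in VZ progenitor-like cells (-2.32), and Col11a1 at 0.135 and 0.463 (-1.78). The other two lay within 2-fold: Col1a2, a chain of type I, was at 0.0247 in neuron-like and 0.0405 in VZ progenitor-like cells (-0.71, and between -1.59 and -0.65 over the alternative settings), and Col11a2, another chain of type XI, at 0.00895 and 0.00783 (0.19, on 21 and 12 summed values).

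Fibril-associated collagens went in both directions. Their summed level was 0.298 in the VZ, 0.243 in the SVZ and 0.381 in neurons, where Col9a3 alone made up 0.330. Col9a3, a chain of type IX, was at 0.330 in neuron-like and 0.136 in VZ progenitor-like cells, a log2 ratio of 1.27, and had a value in 26.6% and 14.4% of cells. Over the alternative settings this ratio ran between 0.89 and 1.59, and only the ratio of shares of cells lay under 2-fold. The other type IX chains were sparse: Col9a1 was at 0.0119 in neuron-like and 0.00392 in VZ progenitor-like cells (1.61, on 28 and 6 summed values), and Col9a2 at 0.0230 and 0.0255 (-0.14). Col12a1, which decorates type I fibrils, was at 0.00853 in neuron-like and 0.0894 in VZ progenitor-like cells (-3.39), and Col22a1 at 0.00640 and 0.0431 (-2.75).

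All 3 laminin chains that could be compared were at least 2-fold lower in neurons, where 23.4% of 14829 genes were. Lamb2, a beta chain of brain basement membranes, was at 0.00341 in neuron-like and 0.140 in VZ progenitor-like cells (-5.36), and Lama1 at 0.0153 and 0.164 (-3.42). Lamc1, the gamma chain that most laminins contain, was at 0.0345 in neuron-like and 0.0888 in VZ progenitor-like cells, a smaller difference (-1.36). Lamb3, the beta chain of an epithelial laminin, was listed at 0 in VZ progenitor-like cells and had 31 summed values in all, with its highest level, 0.0517, in LGE neuron-like cells. Lama3, Lama4 and Lama5 had 12, 13 and 16 summed values and stayed under the minimum.

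Integrin alpha subunits are given by ligand. The collagen-binding Itga1 and Itga2 summed to 0.0796 in the VZ, 0.00420 in the SVZ and 0.00128 in neurons. Itga2 had 69 summed values in VZ progenitor-like cells and was listed at 0 in SVZ progenitor-like and in neuron-like cells, so no fold is given. The subunits that bind RGD-bearing ligands such as fibronectin and vitronectin (Itgav, Itga5, Itga8 and Itga2b) summed to 0.183, 0.0699 and 0.0171. Itgav was at 0.0102 in neuron-like and 0.134 in VZ progenitor-like cells (-3.72). Itga5, the main fibronectin receptor, was at 0.00171 and 0.0268 (-3.97, on 4 and 41 summed values). Itga8, a nephronectin receptor, was at 0.000426 and 0.0196 (-5.52, on 1 and 30 summed values). The platelet subunit Itga2b, under the minimum, was at 0.00469 in neuron-like and 0.00196 in VZ progenitor-like cells (1.26, on 11 and 3 summed values). The laminin-binding pair Itga3 and Itga6 summed to 0.383 in the VZ, 0.168 in the SVZ and 0.119 in neurons, and its members went in opposite directions. Itga6 was at 0.102 in neuron-like and 0.379 in VZ progenitor-like cells (-1.90). Itga3 was at 0.0166 in neuron-like and 0.00326 in VZ progenitor-like cells (2.35, on 39 and 5 summed values).

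The beta subunits separated too. Itgb1 was at 0.836 in neuron-like and 1.37 in VZ progenitor-like cells (-0.71), with a value in 60.4% and 82.5% of cells. Itgb8, which pairs with the alpha-v subunit and releases TGF-beta from its latent form, was at 0.0495 in neuron-like and 0.763 in VZ progenitor-like cells (-3.95). Itgb5, another partner of alpha-v, was at 0.00554 and 0.107 (-4.27). Of the rows that match by name only, the nuclear and kinetochore protein gene Itgb3bp was at 0.125 in neuron-like and 0.713 in VZ progenitor-like cells (-2.51), and Itgb1bp1, an intracellular regulator of beta1 integrin, at 0.362 and 0.433 (-0.26).

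**Figure D3:**
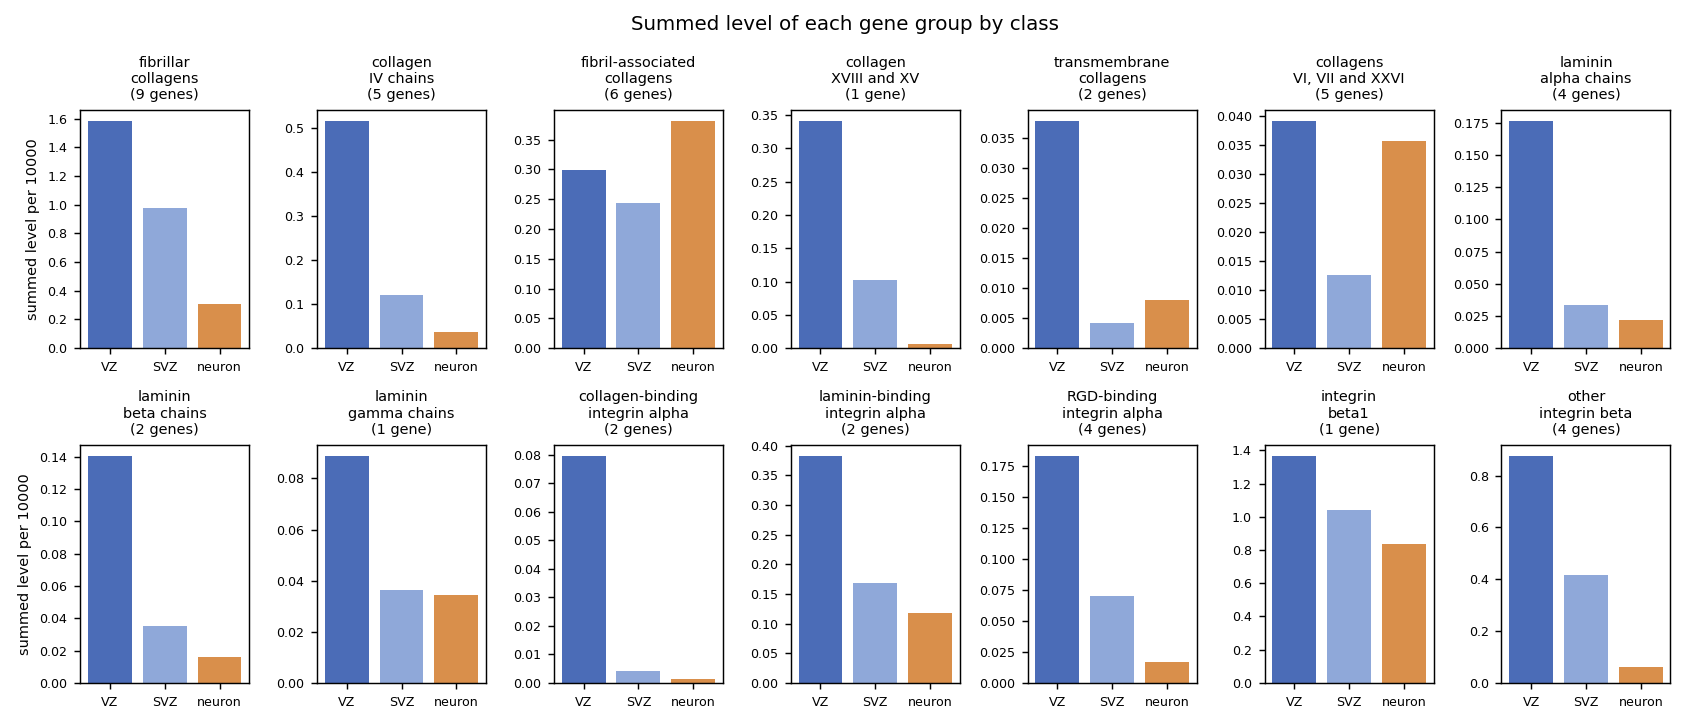
Summed level per 10000 summed values of each group of chains in VZ progenitor-like, SVZ progenitor-like and neuron-like cells (bars; each panel has its own axis from 0; the number of genes is in the panel title). Collagen IV chains stand at 0.514, 0.120 and 0.0358, and fibril-associated collagens at 0.298, 0.243 and 0.381, of which Col9a3 alone is 0.136 in the VZ and 0.330 in neurons.

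SVZ progenitor-like cells had lower levels of most members than VZ progenitor-like cells. Of 31 members with at least 30 summed values over both classes together, 23 were at least 2-fold lower in the SVZ, where 12.9% of 13456 genes were, and 0 were at least 2-fold higher, where 5.31% were. The median log2 ratio was -1.74 for these members and -0.16 for all genes. Without a minimum, 34 of 54 were lower, where 17.9% of genes were, and 8 higher, where 9.01% were. Lama1 was at 0.0252 in SVZ progenitor-like and 0.164 in VZ progenitor-like cells (-2.70), Itga1 at 0.00420 and 0.0346 (-3.04), and Col4a1 and Col4a2 at 0.0350 each, against 0.180 and 0.182 (-2.36 and -2.38). Col12a1 (-2.41), Col23a1 (-2.36), Col2a1 (-2.30), Lamb2 (-2.06) and Col1a2 (-2.05) were the others among the 10 members with the largest differences, Itga2 included, which was listed at 0 in the SVZ. Those of Itga1 and Col23a1 rested on 3 summed values each in the SVZ. The ratio of Col12a1 was -0.97 with 4000 variable genes. That of Col1a2 rested on 7 summed values in the SVZ, lay under 2-fold in 5 alternative settings and was 0.024 when classes and levels came from separate parts of the values.

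Some fibrillar collagens and Itgb1 differed between the SVZ and the VZ by less than 2-fold. Col5a2 was at 0.513 in SVZ progenitor-like and 0.567 in VZ progenitor-like cells (-0.14), Col11a1 at 0.340 and 0.463 (-0.44), and Itgb1 at 1.04 and 1.37 (-0.40). Col5a2 reached its highest level, 0.819, in SVZ cluster 11, which Gsx1 and Dll3 led and in which 55.9% of cells had a value. The other SVZ clusters had 0.365 and 0.344. Col16a1, a fibril-associated collagen, had 22 summed values in all, listed at 0 in the VZ and at 0.0733 in cluster 11, and 3 cells held at least 50% of its sum.

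Differences among the 4 VZ progenitor-like clusters were small for most members. With at least 30 summed values in the VZ, 8 of 31 members had a highest level at least 2-fold the lowest, where 18.7% of 12672 genes did. These clusters differ in cell cycle genes: Hist1h1b, a histone of S phase, ran between 2.16 and 53.7 per 10000, and Hes5 between 10.2 and 16.0. Itga8 was at 0.0495 in cluster 2 and at 0.00590 in cluster 6. Lamb2 was at 0.204 in cluster 2 and 0.161 in cluster 3, the clusters with the highest Hist1h1b, against 0.0961 in cluster 5 and 0.118 in cluster 6. Col1a2 was highest in cluster 6, at 0.0738, and lowest in cluster 2, at 0.0248. Col4a2 ran only between 0.165 and 0.204, Itgb1 between 1.12 and 1.52 and Itga6 between 0.338 and 0.431. The count of 8 was 2 with coarser and 24 with finer clusters. The part of the cell cycle in these differences was not tested.

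A few single cells carried much of the sum of some chains. Of the vascular and mesenchymal markers, 10 had a row. Among them Notch3 had a value in 43.1% of VZ progenitor-like and 0.997% of neuron-like cells, so the marker sum is not particular to vascular cells. A summed marker value of at least 5 was found in 11 cells, all VZ progenitor-like. Of these, 2 cells of cluster 5 had no Hes5 and carried Pdgfrb at 20 and 8 and Vtn at 10 and 4, genes of pericytes. The same 2 cells had Col4a1 at 27 and 14, Col4a2 at 8 and 15 and Col1a1 at 14 and 2, and member sums of 80 and 74. The rest of the 11 cells had the progenitor markers Hes5 between 7 and 70 and Sox2 between 5 and 19. For Col1a1, the main chain of type I collagen, 51.9% of the sum lay in 1 cell. The 11 cells held 59.3% of the sum of Col1a1, 14.7% of that of Col4a1 and 8.36% of that of Col4a2, but 1.40% of the sum of all members. Without them the VZ level was 0.00527 for Col1a1 in place of 0.0157, 0.150 for Col4a1 in place of 0.180 and 0.165 for Col4a2 in place of 0.182. Lama4 and Itga4 kept 44.9% and 43.3% of their VZ levels, and Itgb1 98.7%. The count of members at least 2-fold lower in neurons was 26 without these cells, a setting added after the data were seen. Endothelial markers such as Cldn5, Cdh5 and Kdr had no row. Of the mesenchymal markers with a row, only Dcn was listed at 0 in VZ progenitor-like cells. Prrx1 was at 0.122 in VZ progenitor-like and 0.00213 in neuron-like cells. Pdgfra was at 0.0685 and 0.00298, and Snai2 at 0.00588 and 0.00298.

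Chains that assemble with each other were compared cell by cell in the VZ. Col4a1 had a value in 31.2% of the 221 VZ progenitor-like cells with a value of Col4a2 (exact binomial 95% interval 25.2% to 37.8%) and in 14.9% of the 942 cells without one (12.7% to 17.3%). These intervals did not overlap. When each cell was thinned to 10000 values the shares were 25.2% and 11.8%, again with separate intervals. The intervals of the other 9 pairs overlapped. Other gene pairs of like detection were not examined, so whether the separation is particular to Col4a1 and Col4a2 was not tested. The cells with Pdgfrb and Vtn described above, high in both chains, were kept in these shares. Itga6 had a value in 40.7% of cells with Itgb1 and 35.0% of cells without. Itgav had a value in 15.7% of cells with Itgb8 and 16.9% of cells without, and Lama1 in 21.2% of cells with Lamc1 and 18.7% of cells without. The intervals cover the counting of cells only, and a difference within them was not detectable at this depth. Lamb1 had no row, so its pairing with Lamc1 could not be examined.

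**Figure D4:**
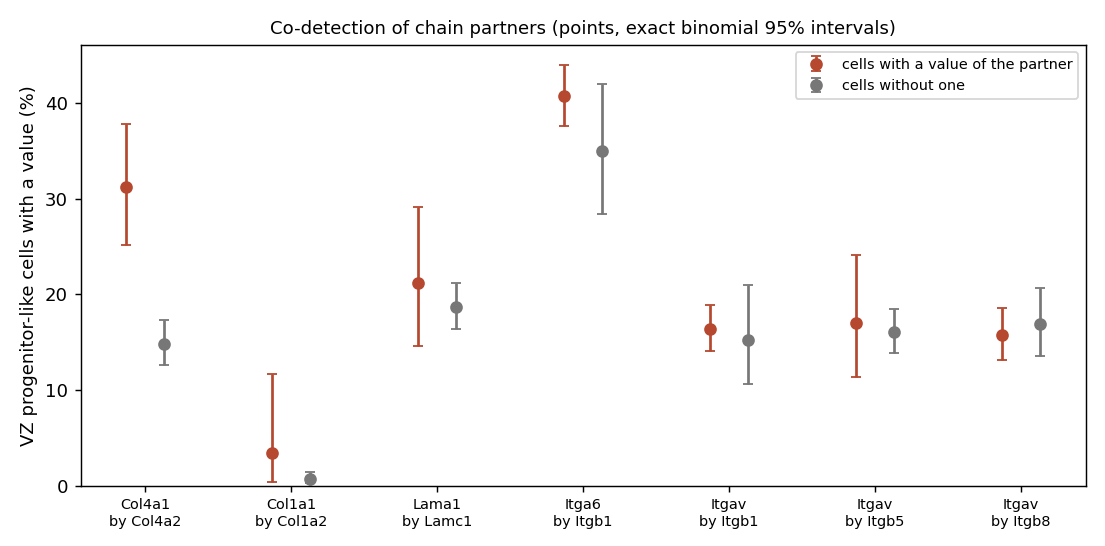
Share of VZ progenitor-like cells with a value of the first-named chain among cells with (red) and without (grey) a value of its partner, with exact binomial 95% intervals. Col4a1 by Col4a2 is the only pair shown whose intervals are apart, at 31.2% and 14.9%; 3 pairs with shares under 1% are not drawn.

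Within neurons the members were sparse, and fewer could be compared. Cholinergic neuron-like cells were set against GABAergic MGE neuron-like cells, the lineages that the study names. Of 11 members with at least 30 summed values over both classes together, 3 were at least 2-fold higher in the cholinergic class, where 4.56% of 12190 genes were, and 2 lower, where 5.13% were. The median log2 ratio was -0.20, against -0.01 for all genes. Without a minimum 12 were higher, where 10.9% of genes were, and 21 lower, where 14.3% were. Of the higher members, Col9a3 had the most summed values. It was at 0.742 in cholinergic and 0.321 in GABAergic MGE neuron-like cells (1.21), with a value in 50.0% and 27.4% of cells. Over the alternative settings its ratio ran between 0.87 and 1.69. Cluster 9, GABAergic MGE neuron-like with markers of both lineages, had 0.471. Clusters 10, 12 and 14 had 0.288, 0.261 and 0.180. Col9a2 was at 0.0337 in cholinergic and 0.0133 in GABAergic MGE neuron-like cells (1.35), and Col2a1 at 0.0337 and 0.0147 (1.20), each on 12 summed values in the cholinergic class. Over the alternative settings these ratios ran between 0.39 and 1.36 for Col9a2 and between 0.77 and 1.46 for Col2a1.

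Col5a2 went the other way, at 0.0281 in cholinergic and 0.132 in GABAergic MGE neuron-like cells (-2.23). Its GABAergic level came mostly from cluster 10, at 0.326, a cluster that also had the SVZ markers Dll3 and Mfng. Clusters 9, 12 and 14 had 0.0542, 0.0531 and 0.0301. When classes and levels came from separate parts of the values the ratio was -0.34. Lamc1 was at 0.0169 in cholinergic and 0.0391 in GABAergic MGE neuron-like cells (-1.21, on 6 summed values in the cholinergic class, and between -1.55 and -0.59 over the alternative settings). Itgb1 was at 0.624 and 0.794 (-0.35), and Itgb8 at 0.0506 and 0.0509 (-0.01).

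LGE neuron-like cells were set against the GABAergic and cholinergic MGE classes together. Of 15 members, 3 were at least 2-fold higher in LGE neuron-like cells, where 6.04% of 12605 genes were, and 4 lower, where 5.87% were. The median log2 ratio was -0.02, against 0.01 for all genes. Without a minimum 12 were higher, where 10.9% of genes were, and 24 lower, where 15.1% were. Col9a3 was at 0.0905 in LGE and 0.405 in MGE neuron-like cells (-2.16), and Col5a2 at 0.0162 and 0.111 (-2.78). Itga6 was at 0.158 in LGE and 0.0721 in MGE neuron-like cells (1.14), with a value in 15.6% and 7.93% of cells. Its ratio ran between 0.91 and 1.63 over the alternative settings. Col1a2 was at 0.0485 in LGE and 0.0106 in MGE neuron-like cells (2.19), on 15 and 19 summed values. Col9a2 (1.16), Itgb8 (-1.39) and Col2a1 (-2.51) rested on 12, 6 and 1 summed values in LGE neuron-like cells, and Col2a1 was at -0.37 with coarser clusters, Itgb8 at -0.90 and Col9a2 at 0.87 with finer ones.

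Smaller neuron clusters stood out for single members. In cluster 13, 38 glutamatergic-type neuron-like cells that the hypothalamic genes Otp and Sim1 also led, Itga6 was at 0.635, its highest level, with a value in 36.8% of cells (exact binomial 95% interval 21.8% to 54.0%). By share of cells the VZ clusters 3, 5 and 6 were higher, at 40.6%, 38.1% and 45.5%. In cluster 13, 18.4% of cells skip the value 1, against 5.36% of all cells, and the part of this in its levels was not tested. Itga4, which pairs with beta1 to bind fibronectin and VCAM1, was at 0.254 there, with a value in 21.1% of cells (9.55% to 37.3%), against at most 0.00801 in any other cluster. Col1a2 was highest in cluster 16, at 0.120, a cluster of unnamed subtype led by Hmx2 and Hmx3, followed by 0.0751 in cluster 14. Col6a5 was listed at 0 in all VZ and SVZ clusters and was highest in cluster 14, at 0.0376, on 29 summed values in all.

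**Figure D5:**
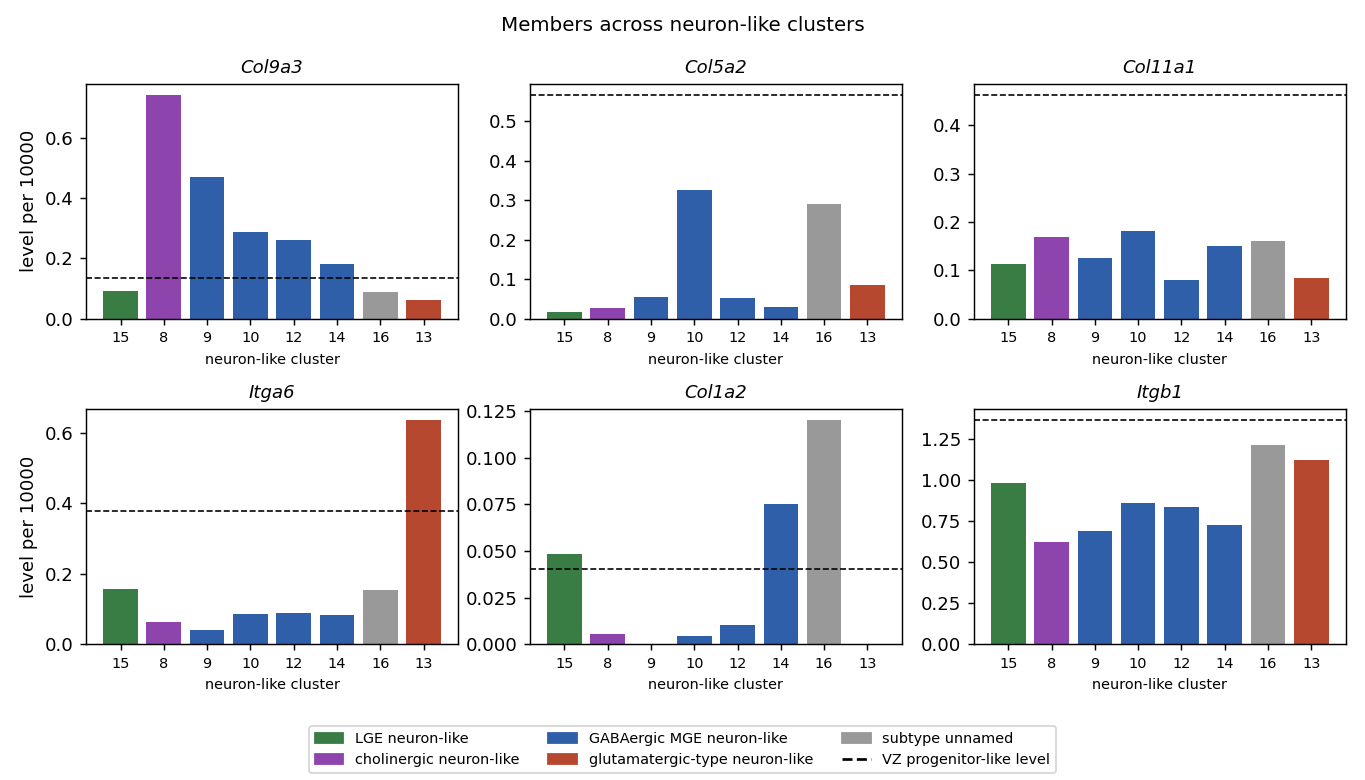
Level per 10000 summed values of 6 members in each neuron-like cluster (bars, coloured by subclass) with the level in VZ progenitor-like cells as a dashed line; each panel has its own axis from 0. Col9a3 is highest in cholinergic neuron-like cluster 8, Col5a2 in clusters 10 and 16, Itga6 in cluster 13 and Col1a2 in cluster 16, and Itgb1 lies below the dashed line in every cluster.

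Other genes of matrix and adhesion were counted from 7 lists, neuron-like over VZ progenitor-like, beside the 23.4% of genes lower and 17.0% higher. Of 11 basement membrane partners of collagen IV and laminin, 7 were at least 2-fold lower and 1 higher (median -1.88). Sparc, a collagen-binding glycoprotein, was at 0.0414 in neuron-like and 3.09 in VZ progenitor-like cells (-6.23), and the perlecan gene Hspg2 at 0.00298 and 0.0640 (-4.42). Smoc1 was the higher one, at 0.319 and 0.0281 (3.51). Of 20 collagen biosynthesis enzymes and chaperones, 13 were lower and 0 higher (median -1.12). Among them Serpinh1, the collagen chaperone HSP47, was at 0.373 in neuron-like and 1.46 in VZ progenitor-like cells (-1.97). The 7 within 2-fold were the general folding enzymes P4hb (-0.63) and Ppib (-0.37), and P3h1 (-0.76), Plod3 (-0.51), Bmp1 (-0.28), Mia3 (0.38) and P4ha2 (0.76).

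On the receptor side, 8 of 20 integrin adhesion adaptors were lower and 2 higher (median -0.68). Tns1, which links integrins to actin, was at 0.00213 in neuron-like and 0.0862 in VZ progenitor-like cells (-5.34), whereas talin Tln1 was at 0.819 and 0.559 (0.55) and the focal adhesion kinase Ptk2 at 0.453 and 0.517 (-0.19). Of 14 non-integrin matrix receptors, 7 were lower and 1 higher (median -1.29), with Sdc4 lowest (-6.28) and Gpc2 higher (2.93). Of 18 other matrix ligands, 10 were lower and 5 higher (median -1.75). Fn1, the fibronectin that Itga5 binds, was at 0.0243 in neuron-like and 0.542 in VZ progenitor-like cells (-4.48). The proteoglycan Ncan was at 1.53 in neuron-like and 0.369 in VZ progenitor-like cells (2.06), and Edil3, an RGD-bearing ligand, at 0.446 and 0.0294 (3.92). Of 19 matrix proteases and inhibitors, 7 were lower and 3 higher (median -0.42), with Mmp24 at 4.21. Of 6 genes of latent TGF-beta, 3 were lower and 2 higher (median -1.14). Ltbp1, which tethers latent TGF-beta, was at 0.000853 in neuron-like and 0.0346 in VZ progenitor-like cells (-5.34), and Tgfb3 at 0.0426 and 0.00783 (2.44).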

How the data were processed

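The deposited matrix holds whole numbers from 0 to 1245 for 18088 genes and 4001 cells, and cell totals lie between 10475 and 14196. Its values, as the authors deposited them, are treated as a score: in 214 cells (5.35%) the value 1 is skipped. The sources used here do not say whether counts were scaled, so raw depth per cell is unknown. The submitters' processing notes name Cell Ranger 3.0.2, bcl2fastq and the build GRCm38. The design had allowed for counts, and no count model was run.

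Scrublet in scanpy 1.11.5 called 6 doublets (0.150%), too few to show that the caller worked, and they were removed. Cells were scaled to 10000, log-transformed and clustered on 2000 variable genes, 30 principal components and 15 neighbours at Leiden resolution 1 (16 clusters). Members were left out of the variable genes so that they do not define the classes they are compared across. Clusters were named from marker lists. For a name, 3 or more markers had to reach 1.5 times their level in other cells and a value in 10% of cells. Microglia and choroid plexus had 1 marker with a row each, so they could not be named. Endothelial cells had 3 of 11 and mural cells 3 of 11, so a name needed all 3, and no cluster received it.

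Ratios of levels carry no error, since there is 1 library. Called means past 2-fold with at least 30 summed values over both classes together. Ratios were checked on simulated data. Named are the 10 members of each family with the largest sums, chain partners and up to 3 genes per other list. Up to 10 members past 2-fold per direction and comparison are also named. Small-cluster and single-cell features and the members under the minimum were chosen after their values were seen. So were Tln1, Ptk2, P4hb, Ppib, Serpinh1, Hspg2, P3h1, Plod3, Bmp1, Mia3 and P4ha2, and the markers Elavl4, Pax6, Notch3 and Sox2. Members and lists were chosen with earlier results of these data known. Gene symbols of all 55 members matched the GENCODE M21 annotation.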

Additional observations from a re-analysis of the deposited data

How the results depend on the processing

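No paired analysis was possible because there is 1 library and no replicate. The 26 members lower and 23 members lower, in neurons and in the SVZ against the VZ, were 17 and 14 with a minimum of 100 summed values, where fewer members enter. The 3 members higher in neurons were 1 with that minimum and 12 without one, and the 0 members higher in the SVZ were 8 without one. In cholinergic against GABAergic MGE neuron-like cells the 3 higher were 1 at resolution 2, with members kept among the variable genes, with a minimum of 100 and by share of cells, and 12 without a minimum. The 2 lower were 1 at resolution 2, with 4000 variable genes, with a minimum of 100 and with doublets kept, and 21 without a minimum, where the collagen median was -0.49 in place of 1.20. In LGE against MGE neuron-like cells the 3 higher were 1 with members kept, 1 with a minimum of 100 and 12 without, and the 4 lower were 2 and 24. The 8 members that varied among VZ clusters were 2 at resolution 0.5, 24 at resolution 2, 13 with 4000 variable genes and 5 with members kept. With classes and levels from separate parts of the values, Col1a2 in SVZ over VZ progenitor-like cells was at 0.024 in place of -2.05. Thinning gave 25.2% for Col4a1 with Col4a2, 12.6% for Lama1 and 0% for Lama5 with Lamc1, 31.5% for Itga6 and 12.04% for Itgav with Itgb1, 10.3% for Itgav with Itgb5 and 11.6% with Itgb8. Where the number of cells or genes did not change by construction, the cause was not tested. Leaving out the 11 cells with a summed marker value of at least 5, or counting the unnamed cluster among the neurons, moved none of these counts by over 1.5 times. Both settings were chosen after the data were seen.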
